A study of Mus musculus with 3 samples.

Results

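Peritoneal macrophages are known for a set of transcripts, not all of them particular to these cells. From that set 8 genes (Vsig4, Cxcl13, Tgfb2, Serpinb2, F5, F10, Alox15 and Gata6) are described here among 37224 counted gene IDs. They were selected on their counts in these same 3 libraries, scaled to library size, and were matched by symbol to Ensembl IDs, so their levels and folds are a description and support nothing by themselves. RNA was sequenced from 3 populations of the gut epithelium, all from mice with the RAG-2 null genotype, which cannot assemble antigen receptors and therefore have no mature T or B cells. Group 1 innate lymphoid cells sorted as NKp46+NK1.1+ gave the ILC1 library, CD45+CD8alpha+ cells gave the iCD8a library, and CD45+CD8alpha-CD11b+ myeloid cells gave the CD11b+ library. Neither the age of the mice nor any pooling of animals is stated in the labels.

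Resident macrophages of the peritoneal cavity in mice depend on the transcription factor GATA6, which retinoic acid signalling maintains. Under that programme they express clotting factors, the B cell chemokine CXCL13, TGF-β2, a lipoxygenase and the protease inhibitor SERPINB2. Several of these genes are also transcribed elsewhere: ALOX15 is abundant in eosinophils, coagulation factors are made mainly by the liver, and GATA6 is present in gut epithelial cells.

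Each population had 1 library, so no difference has a replicate check and none was tested. Gene counts totalled 22181660 in ILC1, 21678113 in iCD8a and 30511296 in CD11b+. Levels are gene counts scaled to library size (CPM), and ranges in parentheses are 95% exact intervals that cover counting error only. Where a gene is at 0, a floor of 3 counts, 0.135 CPM in ILC1, 0.138 CPM in iCD8a and 0.0983 CPM in CD11b+, stands in when a fold is formed, and the upper end of the wider exact interval is given beside the level. In a bulk library, fewer cells of a type and less RNA per cell cannot be told apart. The gene of each sort marker of ILC1 was highest there: Ncr1, which encodes NKp46, stood at 393 CPM in ILC1, against 1.57 CPM in iCD8a and 2.06 CPM in CD11b+, and Klrb1c, which encodes NK1.1, at 542 CPM in ILC1, against 226 CPM in iCD8a and 13.6 CPM in CD11b+. Of 16 genes of natural killer cells and ILC1, 13 passed the size rule given below as higher in ILC1 against CD11b+ and 0 as lower. Against iCD8a 7 were higher and 3 lower, with a median log2 CPM ratio of 1.37. The 16 genes summed to 10967 CPM in ILC1, 54050 CPM in iCD8a and 3760.5 CPM in CD11b+. That sum is larger in iCD8a although 11 of the genes had the higher CPM in ILC1 and 5 in iCD8a.

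All 8 genes were counted in the ILC1 library, but only 3 of them were at their highest level there. Cxcl13, Vsig4 and Tgfb2 were highest in ILC1, whereas Serpinb2, Alox15, Gata6, F5 and F10 were highest in CD11b+. Gata6, the factor that defines the programme, was among those 5. A description of the 8 genes as specific to ILC1 therefore did not hold in these counts. Every one was lowest in iCD8a, where counts ran between 0 and 7. Summed over the 8 genes, the level was 94.9 CPM in ILC1, 1.20 CPM in iCD8a and 244 CPM in CD11b+.

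**Figure D1:**
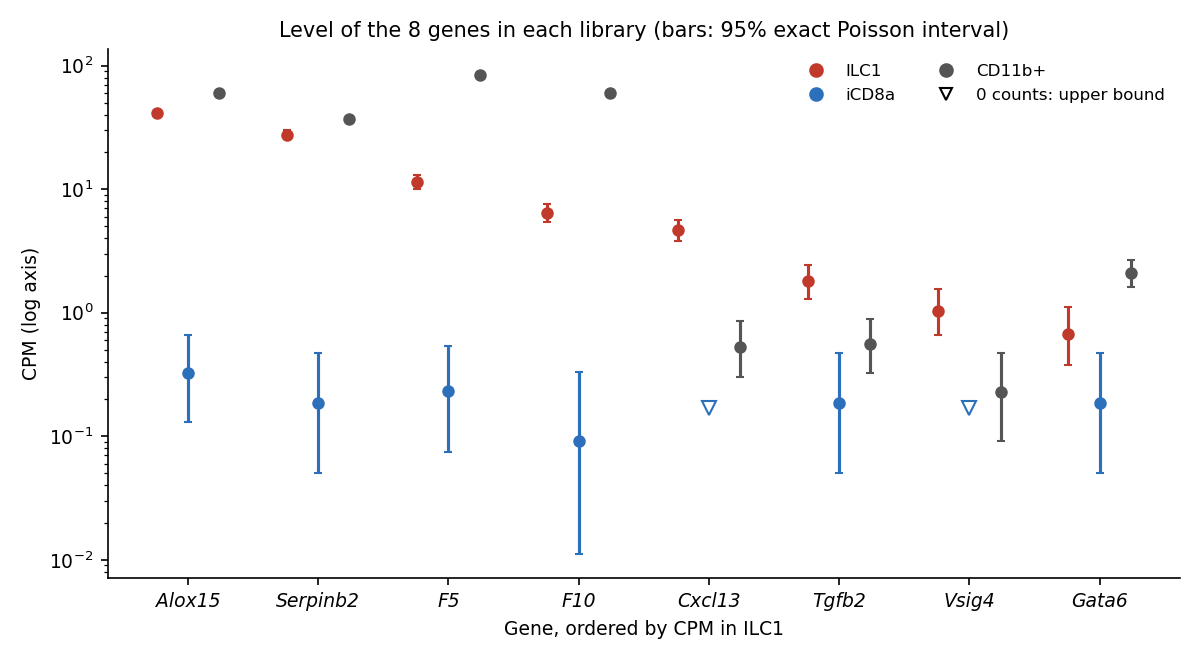
CPM of the 8 genes (log axis) in ILC1, iCD8a and CD11b+, 1 library each, with 95% exact Poisson intervals; open triangles mark the upper bound of a gene with 0 counts. The iCD8a points lie lowest for every gene, and Cxcl13, Tgfb2 and Vsig4 are the genes whose ILC1 point lies above CD11b+.

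Calling a gene higher or lower in what follows asks for a CPM ratio of 4 or more, an interval that stays beyond 2, and 5 CPM or more in whichever library is higher. Of 10188 genes with at least 5 CPM in ILC1 or iCD8a, 4.52% were higher in ILC1 and 3.91% lower. The 8 genes gave 4 in that background, Serpinb2, F5, F10 and Alox15, and all 4 were higher and 0 lower. Because they reached 5 CPM through ILC1 and CD11b+ and never through iCD8a, they had to differ from iCD8a, and nothing is read from their counts against it. Between ILC1 and CD11b+, 6.6% of 10667 genes were higher in ILC1 and 12.4% were lower. Over all 13632 genes measured, the median log2 CPM ratio of ILC1 over CD11b+ was 0.11. The same 4 genes were in this background, where 0 were higher and 2, F5 and F10, were lower. Between iCD8a and CD11b+, 12.1% of 10828 genes were lower in iCD8a and 7.57% higher, and those 4 genes were all lower. Cxcl13, Vsig4, Tgfb2 and Gata6 stayed under 5 CPM in every library. With a minimum of 1 CPM, Cxcl13 also passed as higher in ILC1 than in CD11b+ and 2 genes remained lower, against 7.14% and 14.8% of genes. Vsig4 missed through its near bound of 1.88. At that minimum 7 of the 8 genes passed as higher in ILC1 than in iCD8a and 0 as lower (5.53% and 4.99% of genes), Gata6 being the exception. Between iCD8a and CD11b+, 5 passed as lower and 0 as higher (14.9% and 8.76% of genes), the fifth being Gata6.

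**Figure D2:**
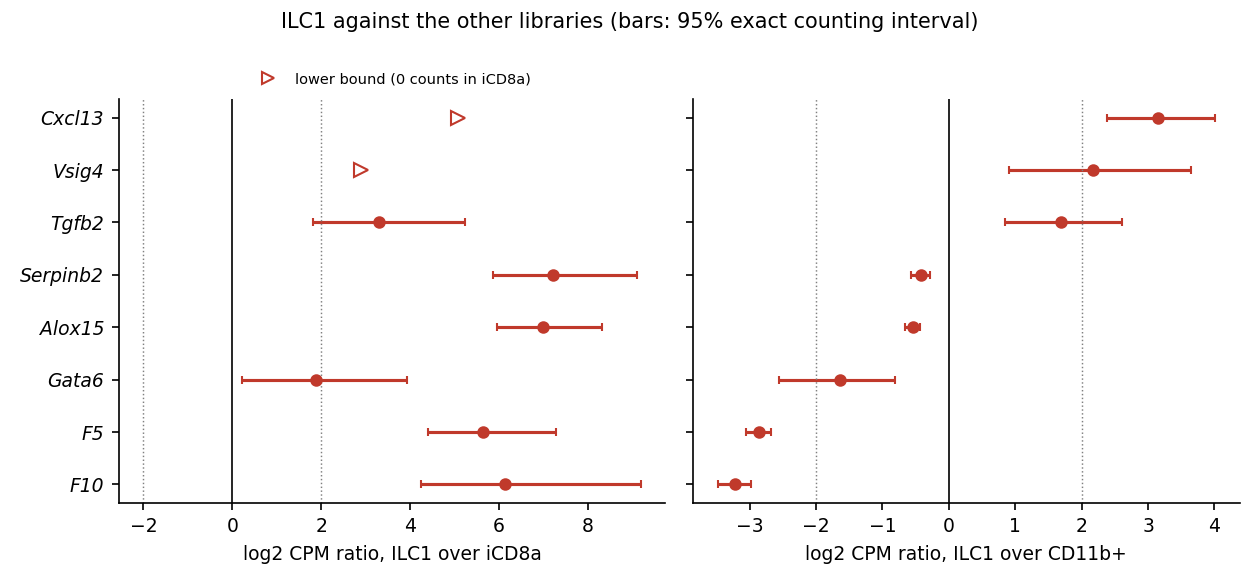
log2 CPM ratios of the 8 genes, ILC1 over iCD8a (left) and ILC1 over CD11b+ (right), with 95% exact counting intervals; dotted lines mark a 4-fold ratio and open triangles a lower bound against 3 counts. All points lie right of 0 against iCD8a, while against CD11b+ they spread between F10, 9.33-fold lower, and Cxcl13, 8.85-fold higher.

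The bases before the annotated starts of these genes were read because the 8 genes are held to answer to one programme while their order over the libraries differs. RefSeq windows on GRCm38.p6 were found for 6 of the 8 genes, and 4 are shown, the pair with the largest ILC1 excess and the pair with the largest deficit against CD11b+. Each is the 250 bases before the start, written 5′ to 3′ on the gene's strand. Capitals mark the motifs searched on both strands: GATAA of GATA factors, AGGTCA of nuclear receptors including the retinoic acid receptors, GAGGAA of PU.1 and TTGCNNAA of C/EBP factors. No capitals of different motifs overlap.
Cxcl13, chr5:95956689-95956938, plus strand: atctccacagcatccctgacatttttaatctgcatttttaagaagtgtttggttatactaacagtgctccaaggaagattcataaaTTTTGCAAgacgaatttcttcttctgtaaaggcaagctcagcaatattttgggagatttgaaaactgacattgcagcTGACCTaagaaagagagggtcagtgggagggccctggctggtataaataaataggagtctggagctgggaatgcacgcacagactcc
Vsig4, chrX:96293439-96293688, minus strand: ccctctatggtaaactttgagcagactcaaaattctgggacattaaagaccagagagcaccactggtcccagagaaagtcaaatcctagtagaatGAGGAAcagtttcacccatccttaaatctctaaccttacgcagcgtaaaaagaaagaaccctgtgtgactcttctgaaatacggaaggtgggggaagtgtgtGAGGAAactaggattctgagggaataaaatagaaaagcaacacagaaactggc
F5, chr1:164151585-164151834, plus strand: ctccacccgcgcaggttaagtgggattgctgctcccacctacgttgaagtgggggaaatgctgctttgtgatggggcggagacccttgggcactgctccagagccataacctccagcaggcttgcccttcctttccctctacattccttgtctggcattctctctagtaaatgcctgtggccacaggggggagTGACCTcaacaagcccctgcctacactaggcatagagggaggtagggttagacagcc
F10, chr8:13037058-13037307, plus strand: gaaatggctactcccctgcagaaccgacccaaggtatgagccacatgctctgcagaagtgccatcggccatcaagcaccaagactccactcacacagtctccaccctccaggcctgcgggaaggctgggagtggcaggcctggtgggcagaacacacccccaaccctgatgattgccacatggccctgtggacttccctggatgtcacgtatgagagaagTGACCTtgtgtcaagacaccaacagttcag

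Cxcl13, F5 and F10 each held the nuclear receptor letters once, in the reverse orientation as TGACCT, beginning 87, 57 and 30 bases before the start. Of all 32851 windows of that length, 14% held them. Vsig4 held GAGGAA at 2 places, a motif found in 23.3% of windows. Cxcl13 held the C/EBP letters once (9.56% of windows). GATAA, found in 22.6% of windows, was in none of these 4 windows. Of the windows not shown, those of Serpinb2 each held the C/EBP letters, and only the one further downstream held GATAA. The window of Tgfb2 held GAGGAA. The windows of these genes and of Vsig4 lacked the nuclear receptor letters. Such matches are letters in a window and say nothing of binding.

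Gata6, the transcription factor of the programme, had the lowest level of the 8 genes per length in ILC1. It had 15 counts in ILC1, 4 in iCD8a and 64 in CD11b+, or 0.676 CPM (0.378 to 1.12), 0.185 CPM (0.0503 to 0.472) and 2.10 CPM (1.62 to 2.68). The ILC1 level was 3.10-fold lower than in CD11b+ (1.75 to 5.86) and 3.66-fold higher than in iCD8a (1.17 to 15.2). Gut epithelium transcribes GATA factors as well, and epithelial transcripts were likewise lower in ILC1 than in CD11b+, though not higher in ILC1 than in iCD8a. Gata4, its close relative, stood at 0.586 CPM in ILC1, 0.415 CPM in iCD8a and 4.20 CPM in CD11b+, and Gata5 at 0.180, 0.507 and 2.26 CPM. Of 17 intestinal epithelial genes, 15 were lower in ILC1 than in CD11b+ by the rule, and their levels summed to 513 CPM in ILC1, 975 CPM in iCD8a and 1839 CPM in CD11b+. Against iCD8a, 0 of them were higher in ILC1 and 2 were lower, with a median log2 CPM ratio of -0.16. None was at 0 in any library. As a share of the CD11b+ level, the structural protein gene Vil1 was at 13.8% in the ILC1 library and the keratin gene Krt20 at 13.6%, against 32.2% for Gata6. The part of epithelial RNA in the Gata6 counts was not tested.

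Other regulators of the programme were also counted. Rara, a retinoic acid receptor, was at 88.5 CPM in ILC1, 16.3 CPM in iCD8a and 93.7 CPM in CD11b+. Rarb, a second receptor of that family, followed at 0.631, 0.185 and 2.59 CPM, a profile whose folds lay close to those of Gata6. Of the 13 regulators with at least 5 CPM in ILC1 or CD11b+, 2 were higher in ILC1 by the rule, Maf and Irf8, and 4 were lower, Cebpb, Cebpa and Spi1 among them, with a median log2 CPM ratio of -0.99 over 14 measured. Spi1 encodes PU.1, which macrophages require, and stood at 2.48 CPM in ILC1, against 661 CPM in CD11b+. Maf, a transcription factor of macrophages and also of lymphocytes, stood at 212 CPM in ILC1, against 51.2 CPM in iCD8a and 37.1 CPM in CD11b+.

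Cxcl13 showed the widest gap in favour of ILC1 among the 8 genes. This chemokine attracts B cells through the receptor CXCR5, and in mice peritoneal macrophages use it to recruit B-1 cells. It had 103 counts in ILC1, 0 in iCD8a and 16 in CD11b+, or 4.64 CPM (3.79 to 5.63), 0 CPM (up to 0.170) and 0.524 CPM (0.300 to 0.852). The ILC1 interval overlapped neither of the others. The level in ILC1 was 8.85-fold higher than in CD11b+ (5.20 to 16.1) and at least 33.6-fold higher than in iCD8a by the floor of 3 counts there, with the exact interval beginning at 26.8. This is the gene whose window, shown above, held both the nuclear receptor and the C/EBP letters. The receptor gene Cxcr5 was at 0.541 CPM in ILC1, 0.323 CPM in iCD8a and 2.49 CPM in CD11b+. Ltb, which encodes lymphotoxin β of lymphoid tissue, was at 107 CPM in ILC1, 8.44 CPM in iCD8a and 9.14 CPM in CD11b+. Tnfsf14, another ligand of the lymphotoxin β receptor, was at 113, 1.34 and 8.49 CPM in that order. These were the 2 of 8 lymphoid chemokine and lymphotoxin genes in the background that were higher in ILC1 than in CD11b+ by the rule. Ccr7 and the receptor Ltbr were lower, and the median log2 CPM ratio over 11 measured genes was -0.82.

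Vsig4 encodes a complement receptor of resident macrophages that binds fragments of C3 and dampens T cell responses. It had 23 counts in ILC1, 0 in iCD8a and 7 in CD11b+, or 1.04 CPM (0.657 to 1.56), 0 CPM (up to 0.170) and 0.229 CPM (0.0922 to 0.473). ILC1 stood 4.52-fold above CD11b+ (1.88 to 12.5) and at least 7.49-fold above iCD8a by the floor of 3 counts there, with the exact interval beginning at 5.62. Most of the complement system had the opposite order. C3, whose fragments Vsig4 binds, was at 5.91 CPM in ILC1, 0.415 CPM in iCD8a and 197 CPM in CD11b+. Of 15 complement genes in the background of ILC1 and CD11b+, 10 were lower in ILC1 and 2 were higher, C4b and Cd55, with a median log2 CPM ratio of -2.86 over 19 measured. The 10 include Itgam, which encodes the sort marker CD11b. C4b, a component of the classical pathway, stood at 52.3 CPM in ILC1, 0.277 CPM in iCD8a and 7.70 CPM in CD11b+. Cd55, which speeds the decay of complement convertases, stood at 18.7, 0.507 and 2.79 CPM.

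Tgfb2 encodes a TGF-β ligand that is secreted in a latent complex. Its counts were 40 in ILC1, 4 in iCD8a and 17 in CD11b+, or 1.80 CPM (1.29 to 2.46), 0.185 CPM (0.0503 to 0.472) and 0.557 CPM (0.325 to 0.892). The ILC1 level was 3.24-fold higher than in CD11b+ (1.79 to 6.09) and 9.77-fold higher than in iCD8a (3.53 to 37.6). Between iCD8a and CD11b+ the interval of the ratio included 1. The related ligand gene Tgfb1 was at 1125 CPM in ILC1, 318 CPM in iCD8a and 775 CPM in CD11b+. Ltbp1, which holds latent TGF-β in the matrix and is itself a peritoneal macrophage gene, was 6.02-fold higher in ILC1 than in CD11b+ (4.34 to 8.52). Smad3, which carries the signal below TGF-β receptors, was at 211 CPM in ILC1, 1.89 CPM in iCD8a and 39.3 CPM in CD11b+. Of 16 genes of the TGF-β list in the background, 3 were higher in ILC1 than in CD11b+, Ltbp1, Smad3 and the inhibitor Smad7, and 4 were lower, with a median log2 CPM ratio of 0.58 over 19 measured.

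Both clotting factor genes were counted in ILC1 and were several times more abundant in CD11b+. Factor V is the cofactor and factor X the protease of the complex that turns prothrombin into thrombin. F5 had 255 counts in ILC1, 5 in iCD8a and 2550 in CD11b+, or 11.5 CPM (10.1 to 12.997), 0.231 CPM (0.0749 to 0.538) and 83.6 CPM (80.4 to 86.9). F10 had 143, 2 and 1835 counts in that order, or 6.45 CPM (5.43 to 7.59), 0.0923 CPM (0.0112 to 0.333) and 60.1 CPM (57.4 to 63.0). F5 was 7.27-fold lower in ILC1 than in CD11b+ (6.39 to 8.30), and F10 was 9.33-fold lower (7.87 to 11.1). Against iCD8a the ILC1 levels were 49.8-fold (21.1 to 155) and 69.9-fold (19.0 to 583) higher. None of the intervals of these 2 genes overlapped between libraries. Their windows each held the same TGACCT letters as that of Cxcl13, whose order between ILC1 and CD11b+ was the opposite. Whether these letters bear on the order was not tested, and the windows shown were picked by these same folds.

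Serpinb2, which encodes plasminogen activator inhibitor 2, did not share that gap. Its counts were 613 in ILC1, 4 in iCD8a and 1130 in CD11b+, or 27.6 CPM (25.5 to 29.9), 0.185 CPM (0.0503 to 0.472) and 37.0 CPM (34.9 to 39.3). ILC1 stood at 74.6% of CD11b+ and 149.8-fold above iCD8a (58.2 to 551). Scaled per kilobase of exon, the level of Serpinb2 in ILC1 over CD11b+ was 1.01, so the order of these 2 libraries depends on the scale. In the annotation 12.4% of its exon bases are shared with Serpinb10, where HTSeq by default leaves reads out as ambiguous. Serpinb10 itself was at 0.811 CPM in ILC1, 0 CPM in iCD8a and 36.2 CPM in CD11b+. Serpinb9b, another clade B serpin, was at 24.5 CPM in ILC1, 0.0923 CPM in iCD8a and 0.262 CPM in CD11b+.

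The coagulation and fibrinolysis list, which includes F5, F10 and Serpinb2, leaned towards CD11b+. Of its 20 genes in the background, 9 were lower and 2 were higher by the rule, and the median log2 CPM ratio over 29 measured genes was -1.18. Plau, which encodes the urokinase that SERPINB2 inhibits, was at 17.0 CPM in ILC1, 2.91 CPM in iCD8a and 105 CPM in CD11b+. Its receptor Plaur was at 6.72, 27.1 and 317 CPM. F13a1, the transglutaminase that cross-links fibrin, reached 1.55% of the CD11b+ level in ILC1. For Procr, which encodes the endothelial receptor for protein C, counts were 0 in ILC1, 24 in iCD8a and 1809 in CD11b+. F7, the partner of tissue factor, stayed at 0.721 CPM in ILC1, 0 CPM in iCD8a and 1.02 CPM in CD11b+, and tissue factor itself, F3, at 1.44, 0.507 and 5.34 CPM. The 2 genes higher in ILC1 were the thrombin receptor genes F2r, at 149.7 CPM against 16.9 CPM in CD11b+, and F2rl2, at 11.9 against 1.51 CPM. F2r was not highest in ILC1. Its log2 CPM ratio over CD11b+, with a prior count of 0.5, was 3.44 in iCD8a and 3.14 in ILC1.

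**Figure D3:**
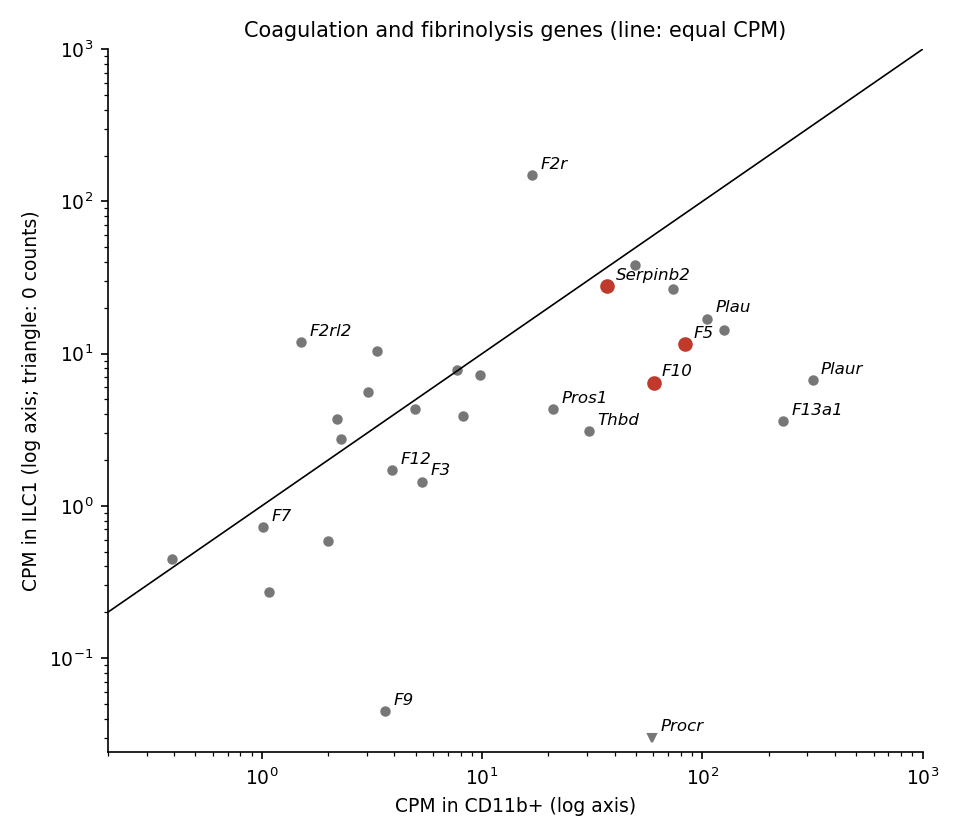
CPM in ILC1 (vertical, log axis) against CPM in CD11b+ (horizontal, log axis) for the 29 measured coagulation and fibrinolysis genes, 1 library each, with F5, F10 and Serpinb2 in red. F5 and F10 lie well below the line of equal CPM, Serpinb2 lies close to it, and Procr, drawn as a triangle at the lower edge, had 0 counts in ILC1.

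Alox15 had the highest level of the 8 genes in ILC1, also per length. Its product, the 12/15-lipoxygenase, oxygenates arachidonic and linoleic acids. It had 913 counts in ILC1, 7 in iCD8a and 1833 in CD11b+, or 41.2 CPM (38.5 to 43.9), 0.323 CPM (0.130 to 0.665) and 60.1 CPM (57.4 to 62.9). ILC1 stood at 68.5% of CD11b+ and 127-fold above iCD8a (61.6 to 318). Alox5, which starts leukotriene synthesis, was at 1.80 CPM in ILC1, 11.9 CPM in iCD8a and 39.7 CPM in CD11b+, and its activating protein gene Alox5ap at 4.28, 26.6 and 327 CPM. Of 14 lipoxygenase-related genes in the background, 9 were lower in ILC1 than in CD11b+ by the rule and 0 were higher, and Alox15 was not among the 9. The median log2 CPM ratio over 15 measured was -3.16. Among genes of eosinophils, which also carry Alox15, Siglecf stood in ILC1 at 0.655% of its CD11b+ level and Ccr3 at 0.502%, and Prg2 had 0 counts in ILC1, 0 in iCD8a and 26 in CD11b+. The 12 eosinophil genes summed to 4.10 CPM in ILC1, 1.06 CPM in iCD8a and 169 CPM in CD11b+, and 6, 7 and 1 of them were at 0 in that order. Most of the ILC1 sum came from Il1rl1, the IL-33 receptor gene, at 2.70 CPM in ILC1, 0.0461 CPM in iCD8a and 4.26 CPM in CD11b+. The part of eosinophil RNA in the Alox15 counts was not tested.

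Among themselves the 8 genes kept different proportions in ILC1 and in CD11b+. Per kilobase of exon, scaled to a common total (TPM), the order of levels in ILC1 was Alox15 at 58.8 TPM, Serpinb2 at 41.3, Cxcl13 at 14.2, F10 at 8.28, F5 at 5.43, Vsig4 at 2.45, Tgfb2 at 1.09 and Gata6 at 0.364 TPM. No 2 neighbours in that order had overlapping counting intervals. In CD11b+ the order was Alox15 at 63.7 TPM, F10 at 57.3, Serpinb2 at 41.0, F5 at 29.3, Cxcl13 at 1.19, Gata6 at 0.839, Vsig4 at 0.402 and Tgfb2 at 0.250 TPM. There the intervals of Cxcl13 and Gata6 overlapped, as did those of Gata6 and Vsig4 and those of Vsig4 and Tgfb2. Cxcl13 lay above F10 per length in ILC1 and far below it in CD11b+. As a share of each gene's summed CPM over the 3 libraries, ILC1 held 89.9% of Cxcl13, 81.9% of Vsig4 and 70.9% of Tgfb2. It held 42.6% of Serpinb2, 40.5% of Alox15, 22.9% of Gata6, 12.1% of F5 and 9.67% of F10.

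A wider list of 25 other large peritoneal macrophage genes, chosen with earlier results of these data known, was also divided between ILC1 and CD11b+. Of 16 of them in the background of ILC1 and CD11b+, 6 were higher in ILC1 by the rule and 4 were lower, against 6.6% and 12.4% of all genes. The median log2 CPM ratio over 23 measured genes was -0.31. The 6 were Prg4, Saa3, Cd5l, C4b, Ltbp1 and Icam2, and each of them was also higher in ILC1 than in iCD8a. For all genes, 1.7% of 11059 were higher in ILC1 than in both others.

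Prg4 encodes lubricin, a lubricating glycoprotein, and had 1233 counts in ILC1, 12 in iCD8a and 141 in CD11b+. Its level of 55.6 CPM in ILC1 was 12.03-fold above CD11b+ (10.1 to 14.4). Saa3, an acute phase protein of macrophages, was at 21.4 CPM in ILC1, 0 CPM in iCD8a and 1.84 CPM in CD11b+, an 11.6-fold gap between ILC1 and CD11b+ (8.81 to 15.6). Cd5l, which encodes a secreted scavenger receptor of tissue macrophages, was at 8.30, 0.0461 and 0.819 CPM, 10.1-fold higher in ILC1 than in CD11b+ (6.65 to 16.1). Icam2, an adhesion molecule also carried by lymphocytes, was 5.73-fold higher (4.72 to 6.99).

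The other 4 went the opposite way. Thbs1, which encodes thrombospondin 1, was 44.5-fold lower in ILC1 than in CD11b+ (42.5 to 46.6). Timd4, the phosphatidylserine receptor TIM-4 of resident macrophages, had 109 counts in ILC1, 0 in iCD8a and 654 in CD11b+, and was 4.36-fold lower in ILC1 (3.56 to 5.39). Cd93 was 5.67-fold lower (5.15 to 6.25) and Hgf had 3 counts in ILC1, against 382 in CD11b+. Fn1, which encodes fibronectin, did not pass the rule, at 268 CPM in ILC1, 1.52 CPM in iCD8a and 828 CPM in CD11b+.

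As a list, genes shared by macrophages of many tissues lay further towards CD11b+ than the 8 genes, with overlap between single genes. All 20 of them were in the background of ILC1 and CD11b+, and 18 were lower in ILC1 and 0 higher, with a median log2 CPM ratio of -4.05. The 18 include Itgam, which encodes CD11b, the sort marker of the CD11b+ library, so its order is tied to the sort. Itgam was at 185 CPM in ILC1, 394 CPM in iCD8a and 782 CPM in CD11b+. Adgre1, which encodes F4/80, was at 14.0 CPM in ILC1, 0.507 CPM in iCD8a and 267 CPM in CD11b+. Csf1r, the receptor that macrophages need for survival, was at 14.3, 1.57 and 887 CPM. In ILC1 these genes stood at 5.26% and 1.61% of their CD11b+ levels, and the lysozyme gene Lyz2 at 5.58%. The complement genes C1qa, C1qb and C1qc stood at 10.2%, 11.7% and 11.4%, close to F10 at 10.7% and F5 at 13.8%. Over the 20 genes this share ran from 0.586% for Clec7a to 132.7% for Fcer1g. Over the 8 genes it ran from 10.7% for F10 to 885% for Cxcl13. Tyrobp and Fcer1g, signalling chains that natural killer cells also use, were the 2 of the 20 that did not pass. Against iCD8a, 7 of 15 in the background were higher in ILC1 and 1 was lower, with a median log2 CPM ratio of 2.37 over the 20. The list summed to 1479 CPM in ILC1, 2832 CPM in iCD8a and 12567 CPM in CD11b+. Tyrobp gave 391, 1201 and 671 CPM of these sums and Fcer1g 406, 949 and 306 CPM, and none of the list's genes was at 0 in any library. The part of macrophage RNA in the counts of the 8 genes was not tested.

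Of 11 gut macrophage genes in the background, 10 were lower in ILC1 than in CD11b+ and 0 higher, with a median log2 CPM ratio of -3.11 over 12 measured. Cx3cr1, the fractalkine receptor of gut macrophages, was at 1.44 CPM in ILC1, 0.323 CPM in iCD8a and 68.0 CPM in CD11b+. Genes of small peritoneal macrophages, which derive from monocytes and carry MHC class II, were lower for 10 of 13 and higher for 1, Cd226, a receptor that natural killer cells also carry, with a median log2 CPM ratio of -5.10. H2-Aa, an MHC class II chain, was at 45.2, 198 and 6159 CPM in ILC1, iCD8a and CD11b+. Ccr2, a chemokine receptor gene of the same list, was at 352, 11.1 and 306 CPM in that order. It passed the rule in neither direction between ILC1 and CD11b+. Of 12 matched genes of mesothelial cells, which line the cavity, 5 were at 0 in ILC1, 5 in iCD8a and 0 in CD11b+, and their defining genes Msln and Upk3b had 0 counts in ILC1, 0 in iCD8a and 2 each in CD11b+. Markers of alveolar, Kupffer and other tissue macrophages were lower in ILC1 than in CD11b+ for 9 of 9 in the background. Over the 14 measured, 13 lay below their CD11b+ CPM and 1, Spic, above it. Vsig4, Cd5l and Marco, also genes of resident or tissue macrophages, stand in other lists here. They were 4.52-fold, 10.1-fold and 89.4-fold higher in ILC1 than in CD11b+, Marco with 1 count in CD11b+.

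**Figure D4:**
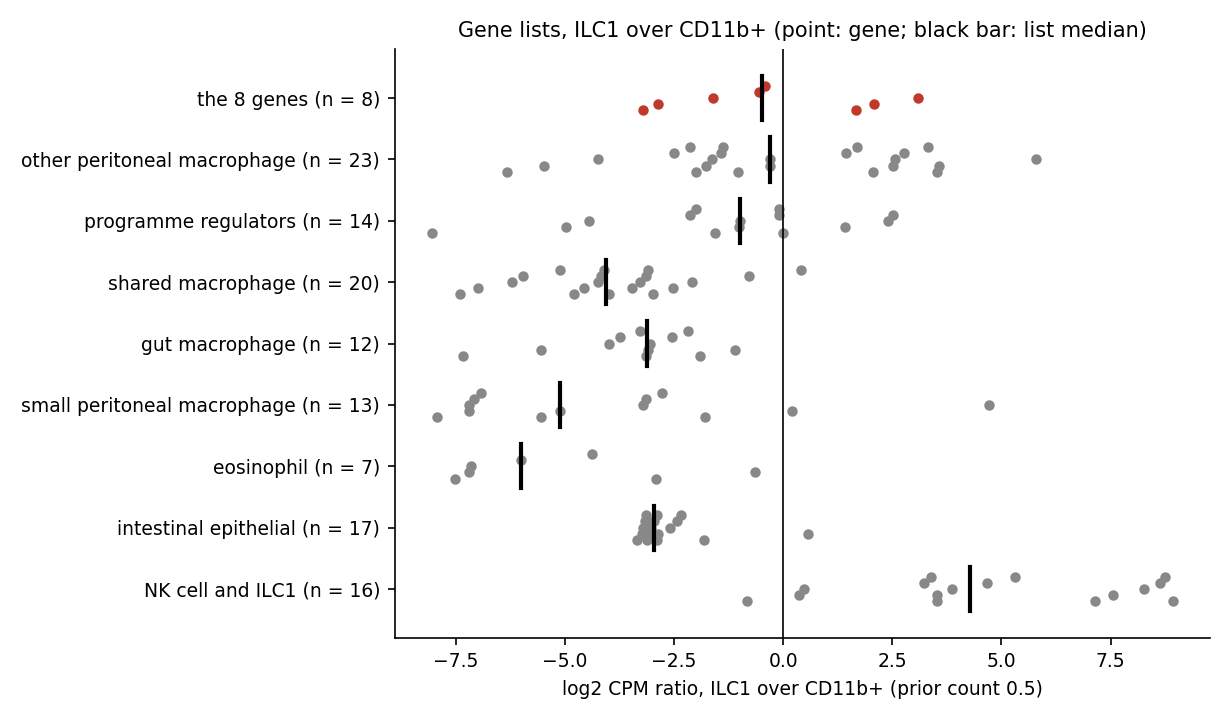
log2 CPM ratio, ILC1 over CD11b+, for the 8 genes (red) and the measured genes of 8 other lists (grey), with list medians as black bars; each point is a gene and a prior count of 0.5 was added. The 8 genes and the other peritoneal macrophage genes spread to both sides of 0, while 19 of 20 shared macrophage genes and all 12 gut macrophage genes lie left of it.

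Genes near the mean distribution of F5, F10, Alox15 and Serpinb2 over the 3 libraries were sought among protein-coding genes with at least 10 CPM in ILC1, by the Euclidean distance between a gene's 3 library shares and the mean shares of these 4. With 3 libraries the measure has little resolution, and the mean lies between 2 unlike pairs: the 4 genes themselves lie 0.200 to 0.235 from it, and the 10 named here 0.0121 to 0.0686, so these lie near a mean that none of the 4 genes shows. The nearest was Trps1, a GATA-type zinc finger gene, with shares of 25.8% in ILC1, 1.23% in iCD8a and 73.0% in CD11b+. Fn1 followed, with 24.4%, 0.139% and 75.4%, and then Fam49a, Atf3, Rap1gap2, Slpi, Ugt1a7c, Ninj1, Oas3 and Rab11fip1.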

How the data were processed

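Per the labels, total RNA was extracted with Trizol, and the design text of the series states alignment by TopHat and read counting by HTSeq, done by the authors. CASAVA 1.9 and TopHat2 stand in the submitters' processing notes. No build, annotation or strand setting is named there. The deposited values are raw read counts per Ensembl gene. The 5 rows that name no gene were left out; non-unique alignments took 34.5% of all rows' sum in ILC1, 26.9% in iCD8a and 30.5% in CD11b+, and reads in no gene 11.0%, 9.31% and 8.56%.

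Symbols and exon lengths came from GENCODE M21 by Ensembl ID (35449 of 37224 matched). CPM used library totals. TPM used the union exon length of GENCODE M21, which may differ from the authors' annotation. Without a stated strand setting, reads of overlapping antisense genes cannot be told apart. Exon overlaps with other genes, counted on either strand, cover 2.14% of Tgfb2, 3.53% of F5 and 1.43% of Gata6. Ratios carry 95% exact conditional binomial intervals, and levels exact Poisson intervals (scipy 1.17.1, Python 3.11.15). Intervals cover counting error only, since reads carry no molecular identifiers. With 1 library per group edgeR's quasi-likelihood test has no residual degrees of freedom, so edgeR 4.0.16 and DESeq2 1.42.0 (R 4.3.3) served for scaling factors, and no p-value is given. List medians used a prior count of 0.5 and genes that reached 1 CPM in 1 or more libraries. The steps were tested on simulated counts.

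The 8 genes and all lists were chosen with earlier results of these data known. Named were the 8 genes and the 10 genes nearest the mean library shares of 4 of them. From the lists, some genes higher in ILC1 than in both others and some of the first 4 of a list were named. Other list genes were named as examples after their values were seen. Some list genes are not reported here.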

Additional observations from a re-analysis of the deposited data

How the results depend on the processing

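The alternatives were TMM, DESeq2 and upper-quartile factors in place of library totals, other CPM and fold minimums, thinning to the smallest total, removal of mitochondrially encoded genes, and protein-coding genes alone; the TPM form was added after seeing the data. The count of the 8 genes higher in ILC1 than in iCD8a, 4 as reported, was 7 with a minimum of 1 CPM and 7 with no minimum. The count higher in ILC1 than in CD11b+, 0 as reported, was 1 with a minimum of 1 CPM and 1 with none, and the count lower, 2 as reported, was 1 with a fold minimum of 8, since fewer genes can pass. Genes higher in ILC1 than in iCD8a, 461 as reported, numbered 697 at 1 CPM, 782 with no minimum, 954 at a fold of 2 and 290 at 8. Those higher than in CD11b+, 704 as reported, numbered 1066 with no minimum, 2076 at a fold of 2 and 314 at 8. Those higher than in both, 188 as reported, numbered 293, 501 and 109 in that order. All 100 member folds recomputed with other factors, thinning or removal of mitochondrial genes stayed inside their counting intervals. In the TPM form 4 of 20 left them, all of ILC1 over CD11b+: Serpinb2 (1.01 in place of 0.746), Alox15 (0.923 in place of 0.685), F5 (0.185 in place of 0.138) and F10 (0.144 in place of 0.107). That form shifts every log2 ratio of ILC1 over CD11b+ by 0.43. TMM shifts log2 ratios by 0.14 for ILC1 over iCD8a and by -0.10 for ILC1 over CD11b+. With list genes at 5 CPM or more only, the median log2 ratio of the other peritoneal macrophage genes, ILC1 over CD11b+, was 0.21 in place of -0.31, over fewer genes. Depth limits Vsig4, Tgfb2 and Gata6 most, each with at most 64 counts in a library. No paired analysis was possible because each population has 1 library.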

Other observations

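Some genes outside the coagulation, complement and lipid groups above also stood highest in ILC1. Marco, a scavenger receptor of peritoneal and other resident macrophages, had 65 counts in ILC1, 0 in iCD8a and 1 in CD11b+, and was 2.93 CPM in ILC1. Arg1, which encodes arginase 1, had 62, 2 and 20 counts in that order, 4.26-fold higher in ILC1 than in CD11b+ (2.54 to 7.45). Selp, which encodes P-selectin, had 140, 0 and 70 counts, 2.75-fold higher (2.05 to 3.72). Cma1, a chymase of connective tissue mast cells, was at 4.91 CPM in ILC1, 0 CPM in iCD8a and 0.164 CPM in CD11b+, while Mcpt1, a protease of mucosal mast cells, was at 2.43, 3.87 and 46.7 CPM. Cpa3, common to both kinds of mast cell, was at 1.53, 4.29 and 1.80 CPM. These genes were picked after their values were seen, and no explanation was tested.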
